A study of Mus musculus with 6 samples.

Results

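Desmosomes are the junctions that rivet keratinocytes to one another and tie the keratin filaments of neighbouring cells into 1 network. Desmogleins and desmocollins, which are cadherins, bind across the gap between cells. Inside the cell their tails hold the armadillo proteins plakoglobin and plakophilin, and these bind desmoplakin, which grips the keratin filaments. In stratified epithelium the cadherins change with depth: desmoglein 3 and desmocollin 3 are typical of the lower layers, and desmoglein 1 and desmocollin 1 of the upper layers. Perp is a membrane protein of the desmosome whose gene is a target of p53 and of p63.

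The genes described are 10 of the 55421 in the deposited table, found by their symbols: the desmogleins Dsg1a, Dsg2 and Dsg3, the desmocollins Dsc2 and Dsc3, plakoglobin (Jup), the plakophilins Pkp1 and Pkp3, desmoplakin (Dsp) and Perp. They were measured in tongue epithelium of 6 mice, 1 library per mouse, by sequencing a tag near the 3′ end of each mRNA (QuantSeq). The 3 KO mice (genotype K14CreERT2 IRE1 F/F) carried floxed Ire1α alleles and a Cre that tamoxifen switches on and that the keratin 14 promoter confines to basal keratinocytes and their progeny. Their 3 littermates (IRE1F/F, here WT) had the floxed alleles without the Cre. All 6 mice, WT included, received tamoxifen daily for 4 days and were harvested on day 5. The epithelium was peeled from the tongue after 10 minutes in protease and collagenase. The question is what loss of Ire1α, an enzyme of the endoplasmic reticulum membrane that responds to misfolded protein and splices the Xbp1 mRNA, changes in this tissue. Values are read counts that the authors divided by 1 size factor per library (normalised read counts).

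Libraries held 5202101 to 6286153 reads in KO and 4606309 to 5911884 in WT. Ern1, which encodes Ire1α, had 78.0, 117 and 123 in KO replicates 1 to 3, against 102, 105 and 77.1 in WT replicates 1 to 3. A 3′ tag outside the deleted exons, which the labels do not name, checks nothing about the genotype. Markers of the labelled epithelium, Krt5, Krt14, Krt13 and Krt4, were abundant in every library. Summed markers of basal keratinocytes were 37603 to 65249 in KO and 26528 to 28841 in WT, and those of suprabasal keratinocytes were 432677 to 646625 in KO and 452089 to 606231 in WT, with Sbsn listed at 0 throughout. Fibroblast markers summed to 213 to 1083 in KO and 1371 to 1878 in WT, with Dpt at 0. Dcn made up most of the sum in WT (195 to 544 in KO and 1329 to 1856 in WT). It was lower in KO without overlap (log2 fold change -2.06). It was called lower by the test described below (limma) and by edgeR and DESeq2. Col1a1 and Col1a2, the other fibroblast markers tested, had positive log2 fold changes (1.01 and 1.15) with overlapping groups and their highest values in KO replicate 1. Skeletal muscle markers summed to 96.5 to 2132 in KO, highest in KO replicate 1, and 130 to 318 in WT, with Acta1 at 0. Simple epithelial and salivary markers summed to 103 to 125 in KO and 30.5 to 73.5 in WT, with Dcpp1 at 0. Krt7 was the largest part of that sum in every library but WT replicate 1. It had 79.1, 85.3 and 62.9 in KO and 18.8, 24.4 and 39.2 in WT, and passed the test described below (limma adjusted p = 0.0354). Krt19, the other marker of this list tested, overlapped between the groups. Muc5b was at 48.6 in KO replicate 3 and 48.1 in WT replicate 1. Endothelial markers summed to 50.5 to 71.5 in KO and 22.2 to 41.5 in WT. The only one tested had a log2 fold change of 0.74 without overlap and did not pass. Sums of leukocyte markers (157 to 320 in KO, 173 to 276 in WT) overlapped. So did those of nerve and glia markers (403 to 552 in KO, 390 to 575 in WT). In whole tissue, fewer cells of a type and less RNA per cell cannot be told apart.

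None of the 10 desmosome genes was called higher or lower in KO, and their changes were of about the size seen over all genes. Dsg3 and Dsc2 were 1.40-fold and 1.38-fold higher in KO, and Dsg1a was at 0.676 of its WT level, with no overlap between KO and WT libraries for any of these genes. The test was run across all genes (limma on log2(value + 1), Benjamini-Hochberg adjusted p under 0.05): 0 of the 10 genes were called higher and 0 lower, where 1.8% of the 10987 tested genes were called, 1.22% higher and 0.583% lower. All 10 passed the filter on low values (at least 10 in at least 3 libraries). edgeR, run on whole reads recovered from the normalised values, likewise called 0 of them, against 1.73% of all genes (1.14% higher, 0.592% lower). DESeq2 called 0 of them, against 2.97% of all genes (1.68% higher, 1.29% lower). At an unadjusted p under 0.05 there were 3 genes (Dsg1a, Dsc2 and Dsg3), against 13.5% of all tested genes (6.68% higher, 6.84% lower). The groups did not overlap in 2 genes higher and 1 lower in KO, against 19.1% of tested genes (9.84% higher, 9.25% lower), so 3 of 10 is near the share over all genes and is no result about desmosome genes as a group. The median log2 fold change of the 10 genes was 0.18, and that of all tested genes -0.01. Their median absolute log2 fold change was 0.249, and that of all tested genes 0.245. This comparison was not matched for level: of the 10 genes only Dsg2 had a mean under 100. The median residual SD on the log2 scale was 0.310 over all tested genes. It was 0.243 over the 4850 with a mean of at least 100. Together the 10 genes held 1.13%, 1.00% and 0.985% of the reads in KO replicates 1 to 3, against 0.972%, 1.01% and 0.858% in WT replicates 1 to 3. The widest 95% Wilson interval of these shares, in KO replicate 1, was 1.12% to 1.14% and covers counting error only. The groups of shares overlapped.

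**Figure D1:**
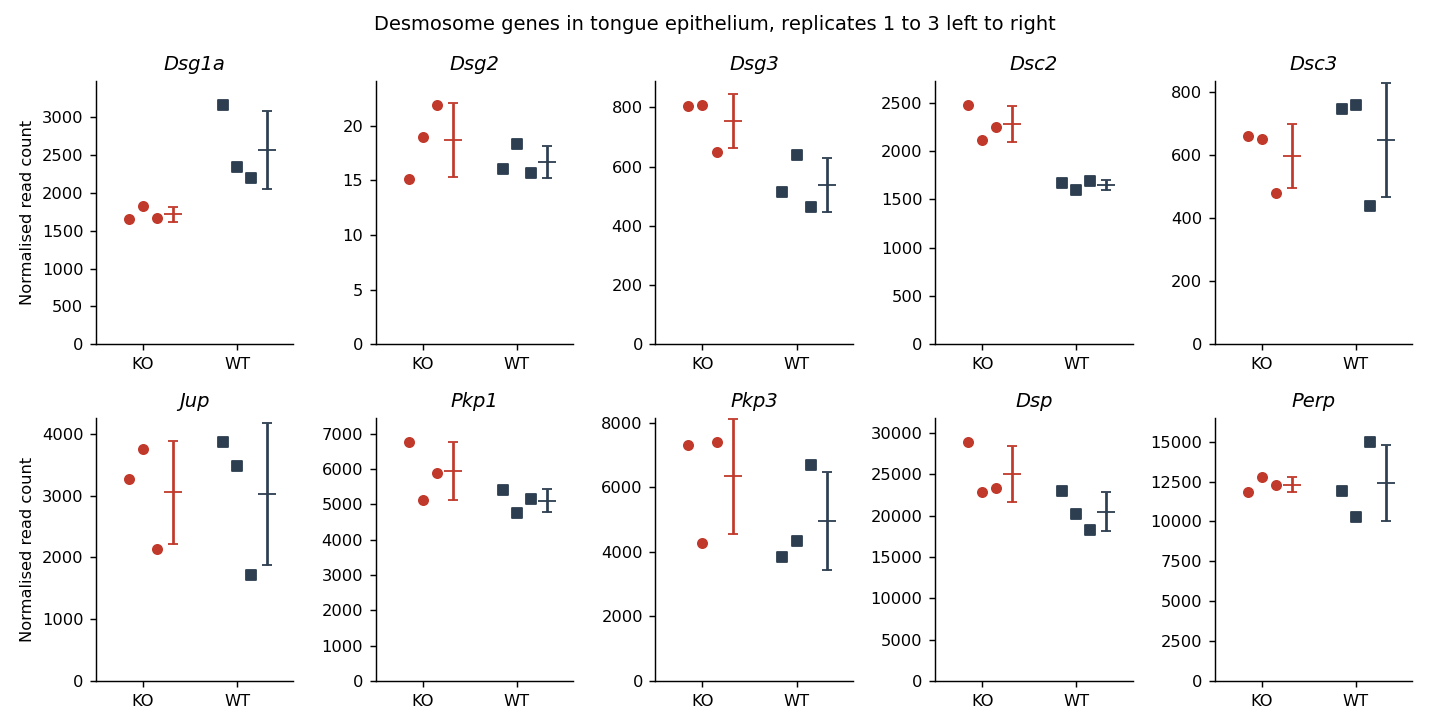
Normalised read count (y axis, from 0) of each desmosome gene in 3 KO libraries (red circles) and 3 WT libraries (dark squares); the bar beside each group is the mean ± SD (n = 3). KO and WT separate in the panels of Dsg1a, Dsg3 and Dsc2 and overlap in the others.

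Promoter sequence from RefSeq is shown for 2 of the 10 genes, Dsp and Jup, matched by symbol. The cadherin genes Dsg1a, Dsg2, Dsg3, Dsc2 and Dsc3 were left out of this search beforehand. For Pkp1, Pkp3 and Perp no promoter sequence was at hand. The genes that separated the groups are therefore not covered. Both Dsp and Jup encode plaque proteins, and Jup had a wider spread between libraries than Dsp. Each line gives the 250 bases before the RefSeq start, 5′ to 3′ in the direction of the gene (GRCm38.p6), for Dsp at chr13:38151044-38151293 on the plus strand and for Jup at chr11:100397791-100398040 on the minus strand. Capitals mark GC boxes (GGGCGG, either strand), the Sp1 motif, and CCAAT boxes (CCAAT, either strand).
Dsp: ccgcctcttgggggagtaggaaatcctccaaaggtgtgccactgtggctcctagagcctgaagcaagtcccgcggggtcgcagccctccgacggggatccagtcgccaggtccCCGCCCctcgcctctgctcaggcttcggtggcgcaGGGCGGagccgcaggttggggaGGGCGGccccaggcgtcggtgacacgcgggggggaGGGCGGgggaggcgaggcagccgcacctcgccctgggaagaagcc
Jup: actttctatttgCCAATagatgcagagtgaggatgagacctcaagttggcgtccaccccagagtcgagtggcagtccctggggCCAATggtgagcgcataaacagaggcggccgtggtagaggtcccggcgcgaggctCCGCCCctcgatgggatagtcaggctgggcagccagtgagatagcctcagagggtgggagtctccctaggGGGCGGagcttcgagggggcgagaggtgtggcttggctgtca

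The Dsp window holds 4 GC boxes and no CCAAT box, and the Jup window holds 2 of each. Of 32851 such windows, 32.7% hold a GC box and 33.8% a CCAAT box. Neither window holds the XBP1 motif TGACGTG (1.65% of windows), the ER stress element (0.113%), a CCAAT box followed after a fixed gap by CCACG, the AP-1 motif TGANTCA (6.75%) or the grainyhead-like motif CCGGTT (5.62%). The matches are letters in a window and no measure of binding.

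Among the desmogleins, Dsg1a was lower and Dsg3 higher in every KO library than in every WT library. Dsg1a encodes 1 of the mouse forms of desmoglein 1 (ENSMUSG00000069441, chromosome 18, 20310811 to 20343350, plus strand; positions here are from GENCODE M21, GRCm38, matched by gene ID). It had 1655, 1824 and 1665 in KO replicates 1 to 3, against 3161, 2342 and 2199 in WT replicates 1 to 3. The KO libraries lay close together and below all WT libraries, of which WT replicate 1 was the highest. The mean was 1715 ± 94.97 in KO and 2567 ± 519 in WT (SD, n = 3 each), a log2 fold change of -0.56 ± 0.19 (SE; 95% interval -0.98 to -0.15) that did not pass (limma adjusted p = 0.197; edgeR adjusted p = 0.206; DESeq2 adjusted p = 0.0872). With a weight per library the limma adjusted p was 0.0504, the lowest for any of the 10 genes under the main, weighted, edgeR and DESeq2 fits. It had the smallest p of the 10 genes in the unweighted limma fit. Without 1 library in turn the log2 fold change was -0.67 to -0.41.

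KO and WT libraries overlapped for Dsg1b, the neighbouring desmoglein 1 gene. It had 1621, 1475 and 1339 in KO replicates 1 to 3, against 1732, 1372 and 1399 in WT replicates 1 to 3 (log2 fold change -0.02 ± 0.17, SE). Dsg1c was at 0 to 2.59 in all libraries, at or under the 3 reads that a count of 0 allows, and was not tested. These genes are close copies, so reads may be split between them: summed, they had a log2 fold change of -0.34 (limma adjusted p = 0.492). None of the 451 windows of 50 bases in the last 500 bases of the Dsg1a mRNA occurs in a transcript of another gene in GENCODE M21. For Dsg1b, 11.3% of such windows do, shared with many genes outside the desmoglein family as well as with Dsg1a. For Dsg1c, 0% do. The ratio of Dsg1a to Dsg1b, which does not depend on the scaling between libraries, was 1.02, 1.24 and 1.24 in KO and 1.82, 1.71 and 1.57 in WT, without overlap; this pair was chosen after its values were seen.

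Dsg3, the main desmoglein of oral epithelium and the autoantigen of mucosal pemphigus (ENSMUSG00000056632, chromosome 18, 20510274 to 20547459, plus strand), had 805, 808 and 650 in KO replicates 1 to 3, against 516, 640 and 462 in WT replicates 1 to 3. The lowest KO library stood only just above the highest WT library. The mean was 754 ± 90.5 in KO and 539 ± 91.0 in WT (SD, n = 3 each), a log2 fold change of 0.49 ± 0.18 (SE; 95% interval 0.08 to 0.90) that did not pass (limma adjusted p = 0.263; edgeR adjusted p = 0.292; DESeq2 adjusted p = 0.286; 0.297 with limma and a weight per library). Dsg2, the desmoglein of simple epithelia and of basal cells (ENSMUSG00000044393), was scarce, with 14 to 23 reads in a KO library and 12 to 21 in a WT library. Its values were 15.2, 19.0 and 21.9 in KO and 16.0, 18.3 and 15.7 in WT. The groups overlapped, and at this depth the 95% interval of the log2 fold change ran from -0.58 to 0.87. A gene annotated antisense to it, Gm16090, had values up to 10.3, in KO replicate 2, and the strand setting of the counting is not given in the sources used here.

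Of the desmocollins, the partners of desmogleins in adhesion, Dsc2 separated the groups and Dsc3 did not. Dsc2 (ENSMUSG00000024331, chromosome 18, 20030633 to 20059554, minus strand) had 2478, 2111 and 2251 in KO replicates 1 to 3, against 1669, 1595 and 1694 in WT replicates 1 to 3. All KO libraries lay above all WT libraries, and the WT libraries differed little. The mean was 2280 ± 185 in KO and 1653 ± 51.4 in WT (SD, n = 3 each), a log2 fold change of 0.46 ± 0.16 (SE; 95% interval 0.10 to 0.82). It did not pass (limma adjusted p = 0.225; edgeR adjusted p = 0.255; DESeq2 adjusted p = 0.134; 0.0764 with limma and a weight per library). Its own residual SD was 0.09 on the log2 scale, against a median of 0.24 over the 4850 tested genes with a mean of at least 100, and limma draws each gene's variance towards that of genes of like level. For 1 gene alone, the smallest two-sided p that an exact permutation test can give here is 0.1.

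Dsc3, the desmocollin of the lower layers (ENSMUSG00000059898, chromosome 18, 19960930 to 20002351, minus strand), had 659, 649 and 477 in KO replicates 1 to 3, against 744, 757 and 439 in WT replicates 1 to 3. It was low in replicate 3 of both groups and the groups overlapped (log2 fold change -0.09 ± 0.24, SE; 95% interval -0.62 to 0.43). Its sign depended on the setting: it was 0.077 with library name style as a covariate and up to 0.059 when 1 library was left out. Dsc1, the desmocollin of the upper layers, had 4897, 3970 and 4426 in KO and 4691, 3253 and 4103 in WT, overlapping (log2 fold change 0.15). Dsc1 and Dsg1b, both typical of upper layers, overlapped between groups while Dsg1a did not.

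**Figure D2:**
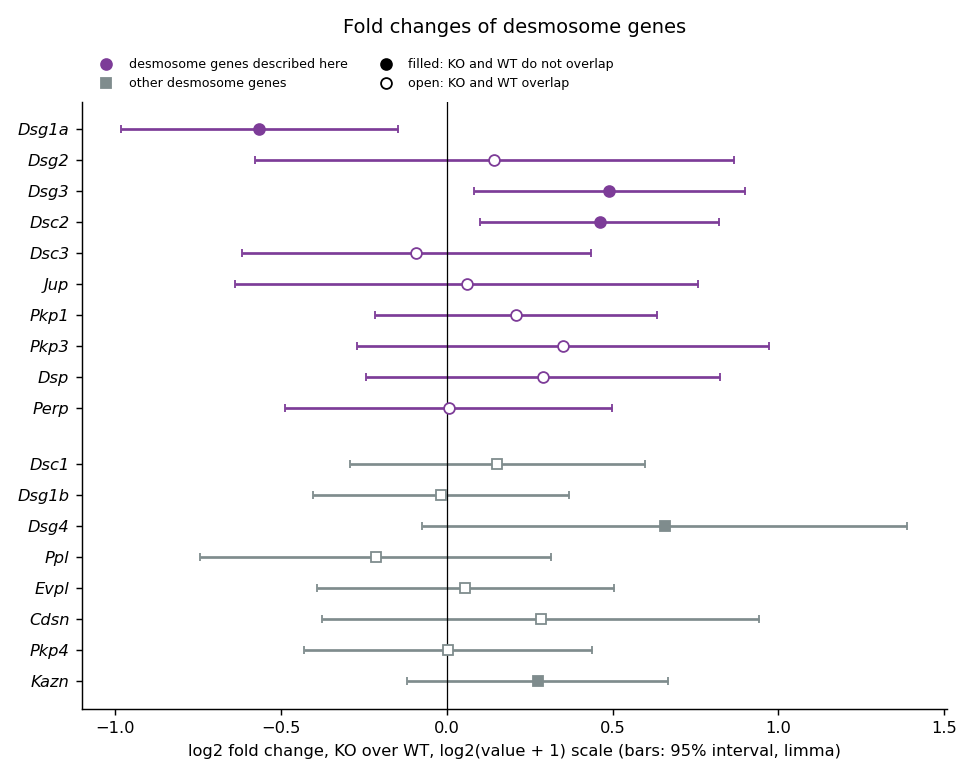
Log2 fold change, KO over WT (x axis, log2(value + 1) scale), with its 95% limma interval for the 10 desmosome genes (purple) and 8 other tested desmosome genes (grey); filled symbols mark genes whose KO and WT libraries do not overlap. The intervals of Dsg1a, Dsg3 and Dsc2 lie on 1 side of 0, before adjustment over all genes.

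All 9 desmosomal cadherin genes lie in 1 cluster of 644 kb on chromosome 18 (19960930 to 20604521), in the order Dsc3, Dsc2, Dsc1, Dsg1c, Dsg1a, Dsg1b, Dsg4, Dsg3, Dsg2. The desmocollins are on the minus strand and the desmogleins on the plus strand. Dsc2, higher in KO without overlap, lies between Dsc3 and Dsc1, whose groups overlapped, and Dsg1a lies beside Dsg1b, whose groups overlapped. The neighbours Dsg4 and Dsg3 were both higher in KO without overlap. Dsg4, a desmoglein of the hair follicle, had 20.6, 19.8 and 24.8 in KO and 16.0, 11.3 and 13.1 in WT. Its groups did not overlap, and it did not pass (log2 fold change 0.66 ± 0.33, SE; limma adjusted p = 0.431).

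**Figure D3:**
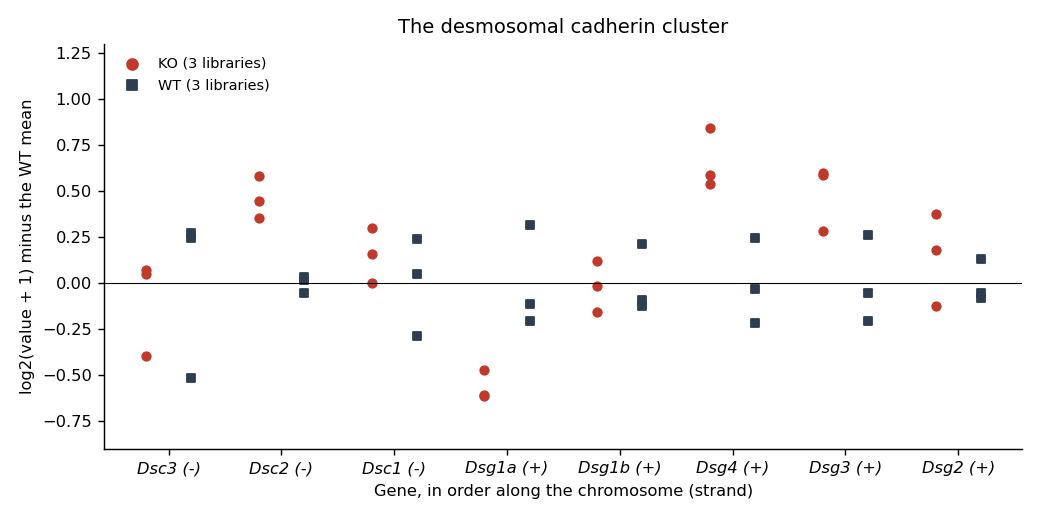
Log2(value + 1) of each library minus the WT mean of the gene (y axis) for the 8 tested cadherin genes, in order along the chromosome (x axis, strand in brackets); red circles are KO and dark squares WT libraries. Dsc2, Dsg4 and Dsg3 have all KO libraries above all WT libraries, and Dsg1a has them below.

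Ratios between 2 genes within a library do not depend on the scaling between libraries, and some of those between cadherins separated the groups while others did not. They are compared between libraries only, and their size does not give the relative amounts of the proteins. The ratio of Dsg3 to Dsc3 was 1.22, 1.25 and 1.36 in KO, against 0.693, 0.844 and 1.05 in WT, with no overlap. The ratio of Dsc2 to Dsc3 was 3.76, 3.25 and 4.71 in KO, against 2.24, 2.11 and 3.86 in WT, overlapping because WT replicate 3 was above KO replicate 2. The ratio of Dsg2 to Dsg3 also overlapped. The ratio of Dsg3 to Dsg1a was 0.486, 0.443 and 0.390 in KO, against 0.163, 0.273 and 0.210 in WT. The ratio of Dsc2 to Dsg1a was 1.50, 1.16 and 1.35 in KO, against 0.528, 0.681 and 0.770 in WT. These last ratios were chosen after the values were seen. They and the planned ratio of Dsg3 to Dsc3 combine genes already described, so none of them is further evidence. Dsg3 alone separated the groups, and the other planned ratios overlapped. The log2 differences of Dsg3 to Dsg1a and Dsc2 to Dsg1a between KO and WT were 1.06 and 1.03, and 0.871 to 1.24 and 0.874 to 1.15 when 1 library was left out. The ratios Pkp1 to Pkp3 and Dsp to Jup overlapped between the groups. Markers of basal keratinocytes differed in direction among themselves. Of the 8 on that list, 4 were higher in KO without overlap (Krt5, Krt14, Itga6 and Itgb4), 2 were lower without overlap (Krt15 and Trp63) and 2 overlapped (Col17a1 and Dst), against 9.84% of tested genes higher and 9.25% lower without overlap. Krt14 was 31082 ± 8822 in KO and 13978 ± 1108 in WT (SD, n = 3 each; limma adjusted p = 0.0694). Krt15 had 3803, 1183 and 2563 in KO and 4815, 5183 and 6177 in WT (log2 fold change -1.25, limma adjusted p = 0.123). With limma only Itgb4, a hemidesmosomal integrin gene, passed (log2 fold change 1.16, limma adjusted p = 0.0194). DESeq2 called 4 of the 8 higher and 1 lower, against 1.68% and 1.29% of all genes. Besides Itgb4 the higher ones were Krt5, Krt14 and Itga6 (DESeq2 adjusted p = 0.0051, 3.1e-05 and 0.0327). The lower one was Krt15 (DESeq2 adjusted p = 0.0228). The part of these markers in the cadherin values was not tested.

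**Figure D4:**
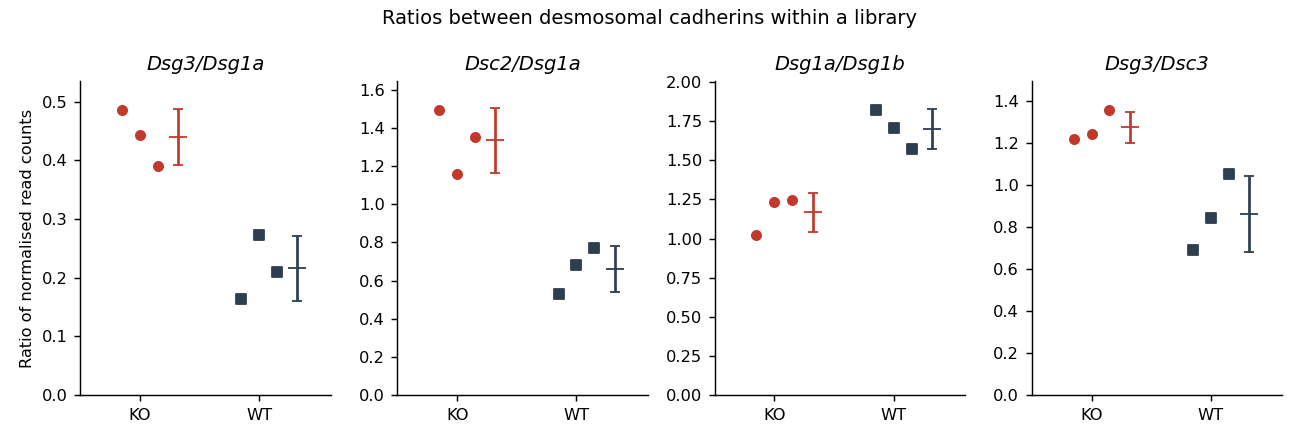
Ratio of normalised read counts within a library (y axis, from 0) for 4 pairs of cadherins in KO (red circles) and WT (dark squares) libraries; bars are mean ± SD (n = 3). KO and WT do not overlap in any of these 4 panels, because only pairs without overlap are shown. The pairs Dsc2 to Dsc3, Dsg2 to Dsg3, Pkp1 to Pkp3 and Dsp to Jup overlapped and are left out. Of the pairs shown, 3 were chosen after their values were seen.

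In the plaque, none of the genes separated the groups. Dsp, which links the junction to keratin (ENSMUSG00000054889, chromosome 13, 38151294 to 38198577, plus strand), had 28971, 22902 and 23371 in KO replicates 1 to 3, against 23033, 20196 and 18259 in WT replicates 1 to 3. KO replicate 1 was the highest library, and KO replicate 2 and WT replicate 1 had nearly the same value. The mean was 25081 ± 3377 in KO and 20496 ± 2401 in WT (SD, n = 3 each), a log2 fold change of 0.29 ± 0.24 (SE; 95% interval -0.24 to 0.82; limma adjusted p = 0.668). Pkp1, the plakophilin of suprabasal cells that strengthens adhesion by clustering the cadherins (ENSMUSG00000026413, chromosome 1, 135871395 to 135919207, minus strand), had 6772, 5133 and 5880 in KO, against 5412, 4764 and 5139 in WT. It too was highest in KO replicate 1, and the groups overlapped (log2 fold change 0.21 ± 0.19, SE). Over the 6 libraries Pkp1 was the desmosome gene most like Dsp, with a root mean square difference of centred log2 values of 0.11. Of all tested genes with a mean of at least 50, those most like Dsp were Btbd9, Gatad2a and Hdac2 (0.04 to 0.05).

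Pkp3 and Jup divided the libraries in another way than genotype. Pkp3, the plakophilin found in all epithelial layers (ENSMUSG00000054065, chromosome 7, 141078218 to 141090510, plus strand), had 7313, 4275 and 7413 in KO replicates 1 to 3, against 3853, 4325 and 6698 in WT replicates 1 to 3. It was high in KO replicates 1 and 3 and WT replicate 3, and low in KO replicate 2 and WT replicates 1 and 2, with no value between 4325 and 6698. Xbp1, the mRNA spliced by Ire1α, had its low values in the libraries where Pkp3 was high: 194, 369 and 199 in KO replicates 1 to 3, and 449, 346 and 162 in WT replicates 1 to 3. The log2 fold change of Pkp3 was 0.35 ± 0.28 (SE; 95% interval -0.27 to 0.97; limma adjusted p = 0.654), and 0.19 to 0.61 when 1 library was left out. The genes most like Pkp3 were Nmt1, Farsa and Akt2 (root mean square difference 0.06 to 0.07 over 6 libraries); Pkp3 was singled out for this after its values were seen.

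Jup, which joins both desmosomes and adherens junctions (ENSMUSG00000001552, chromosome 11, 100368958 to 100397763, minus strand), had 3276, 3763 and 2137 in KO replicates 1 to 3, against 3877, 3480 and 1723 in WT replicates 1 to 3. It was low in replicate 3 of each group, as Dsc3 was, and these were each other's nearest desmosome gene (root mean square difference 0.18). Jup had the widest spread of the 10 genes, 2.25-fold from the lowest to the highest library. Its log2 fold change was 0.06 ± 0.32 (SE; 95% interval -0.64 to 0.76), and its sign turned in some settings: it was -0.38 with a weight per library and -0.30 without WT replicate 3. The library names come in 2 styles whose meaning the labels do not give, numbers in KO replicate 1 and WT replicates 1 and 2, and letters in the others. Within the number style and within the letter style, the log2 difference between KO and WT was -0.16 and 0.72 for Jup, -0.19 and 0.34 for Dsc3, and 0.84 and -0.25 for Pkp3. For Dsc2 it was 0.60 and 0.36, for Dsg3 0.49 and 0.65, and for Dsg1a -0.72 and -0.34. Groups without overlap keep their direction in any such split, so this adds no evidence for these genes. Of the genes with overlap, Dsp (0.43 and 0.34) and Pkp1 (0.42 and 0.10) kept their sign. Dsg2 (-0.17 and 0.36) and Perp (0.10 and -0.26) did not, like Jup, Dsc3 and Pkp3. Each style holds a single library of 1 of the groups.

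**Figure D5:**
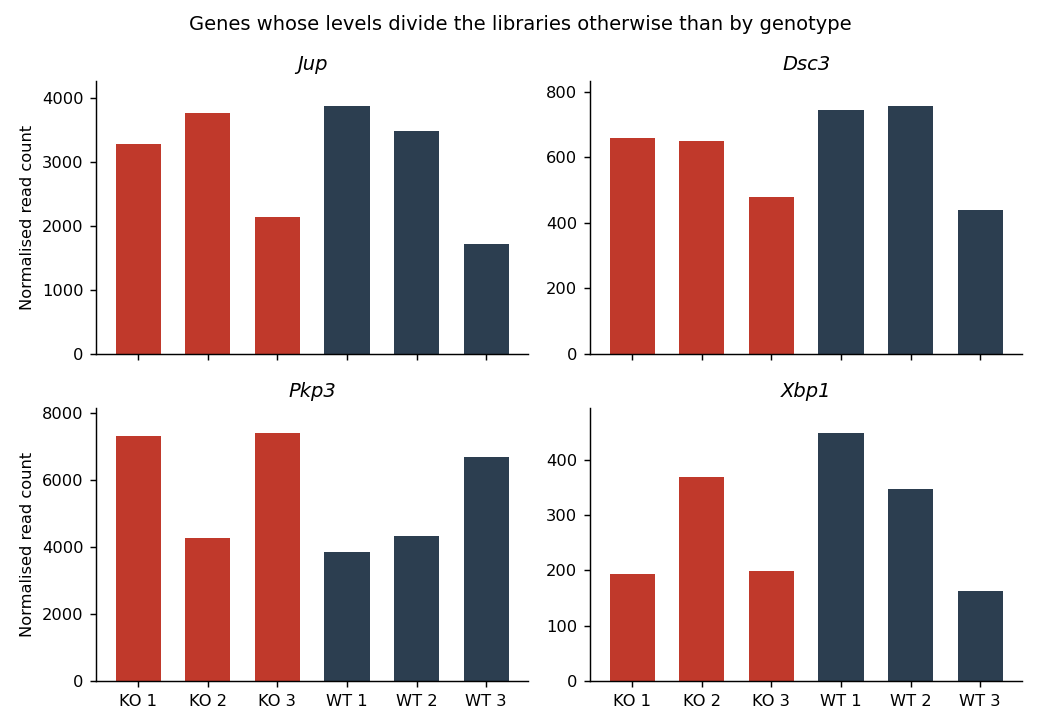
Normalised read count (y axis, from 0) of Jup, Dsc3, Pkp3 and, for comparison, Xbp1 in each KO (red) and WT (dark) library. Jup and Dsc3 are low in replicate 3 of both groups; Pkp3 is high and Xbp1 low in KO replicates 1 and 3 and WT replicate 3.

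Perp (ENSMUSG00000019851, chromosome 10, 18845020 to 18857073, plus strand) overlapped between genotypes, while most other p53 targets tested rose. It had 11847, 12774 and 12293 in KO replicates 1 to 3, against 11888, 10295 and 15006 in WT replicates 1 to 3. All KO libraries lay within the range of the WT libraries. The mean was 12305 ± 463 in KO and 12396 ± 2396 in WT (SD, n = 3 each), a log2 fold change of 0.01 ± 0.22 (SE; 95% interval -0.49 to 0.50; limma adjusted p = 0.996), and its sign changed between settings (-0.030 with equal totals). Of 16 tested genes on a list of p53 targets, chosen with earlier results of these data known, 13 rose and 0 fell with limma, against 1.22% and 0.583% of all tested genes, with a median log2 fold change of 1.51. Those that rose were Ccng1, Trp53inp1, Tnfrsf10b, Zmat3, Eda2r, Gdf15, Pmaip1, Aen, Mdm2, Cdkn1a, Plk2, Bbc3 and Sesn2. Sesn1 went the other way: it had 87.8, 114 and 102 in KO, against 219, 191 and 148 in WT, without overlap (log2 fold change -0.86; limma adjusted p = 0.0794; DESeq2 adjusted p = 0.0344). Cdkn1a, which encodes the cell cycle inhibitor p21, had 17957, 13986 and 13154 in KO, against 6048, 5319 and 6222 in WT. The interval of Perp excludes a change of that size. Trp63, which encodes p63, the regulator of stratified epithelium that drives Perp during its development, had 394, 469 and 531 in KO, against 694, 791 and 599 in WT. It was lower in every KO library and did not pass (log2 fold change -0.58 ± 0.18, SE; limma adjusted p = 0.170). The genes most like Perp over the 6 libraries were Crct1, Cd24a and Ppp2ca (root mean square difference 0.02 to 0.04).

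Among 10 other desmosome genes, 8 were tested and none passed, with 0 at an unadjusted p under 0.05 and 0 called by edgeR or DESeq2. Over all tested genes 1.8% passed with limma and 13.5% had an unadjusted p under 0.05. The log2 fold changes of the 8 desmosome genes ran from -0.21 to 0.66 with a median of 0.10. Ppl and Evpl, which encode periplakin and envoplakin, link desmosomes to the cornified envelope. Ppl had 4594, 4641 and 3631 in KO and 6493, 5151 and 3614 in WT, and Evpl 3116, 1934 and 2597 in KO and 2408, 2335 and 2480 in WT, overlapping in both. Cdsn, the corneodesmosin of the outermost layers, had 33045, 28266 and 40251 in KO and 25675, 21245 and 38269 in WT, overlapping, with replicate 3 the highest in each group. Kazn, which encodes the envelope-binding protein kazrin, had 393, 417 and 383 in KO and 375, 272 and 347 in WT, without overlap (log2 fold change 0.27, limma adjusted p = 0.565). Pkp4 had a log2 fold change of 0.00. Pkp2, the plakophilin of heart and simple epithelium, had values of 0.942 to 5.24 and was not tested.

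In the adherens junction, the other cadherin-based junction of these cells, 1 of 12 tested genes rose and 0 fell, against 1.22% and 0.583% of all tested genes. The median log2 fold change of the 12 was 0.16. The gene that rose was Cdh3, P-cadherin, which marks basal cells. It had 101, 184 and 115 in KO replicates 1 to 3, against 58.4, 61.1 and 56.2 in WT replicates 1 to 3, with no overlap (log2 fold change 1.13 ± 0.25, SE; limma adjusted p = 0.0498). The call was lost whichever library was left out (limma adjusted p of 0.0628 to 0.143), and edgeR gave an adjusted p = 0.0505 and DESeq2 an adjusted p = 0.0103. Cdh1, E-cadherin, had 3854, 2704 and 3054 in KO and 2437, 2594 and 2666 in WT, without overlap, and did not pass (log2 fold change 0.31, limma adjusted p = 0.543). Of 12 tested genes that regulate desmosomes, 0 passed and 1, Trp63, had an unadjusted p under 0.05, against 13.5% of all tested genes. Trp53, which encodes p53, came next by p, with overlapping groups (log2 fold change 0.48). Grhl1, a grainyhead-like factor that binds the Dsg1 promoter, had 1242, 1324 and 1008 in KO and 1498, 1147 and 1028 in WT.

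Of 8 keratins of the filaments that desmosomes anchor, 0 passed with limma, against 1.8% of all tested genes. DESeq2 called 4, all higher in KO (Krt5, Krt14, Krt6a and Krt16), against 1.68% of all genes called higher. With edgeR 0 were called, against 1.73% of all genes. Krt5, the basal partner of Krt14, had 14131, 11038 and 7304 in KO and 5459, 6465 and 3726 in WT, without overlap (log2 fold change 1.04, limma adjusted p = 0.118). Krt13 and Krt4, the main pair of the suprabasal tongue, overlapped between the groups with log2 fold changes of 0.04 and 0.06. They made up most of the summed suprabasal markers. Of the 7 suprabasal markers tested, 3 had a positive and 4 a negative log2 fold change, with a median of -0.30. The negative ones were Krtdap (-0.30), Calml3 (-0.33), Sprr3 (-0.51) and Ivl (-0.58), and Tgm3 was at 0.02. All 7 overlapped between the groups and 0 passed with limma, against 1.8% of all tested genes. The authors' deposited table lists 341 genes with a q-value up to 0.0495 and holds 0 of the 10 desmosome genes, 0 of the other 10 and 1 of the adherens junction genes, Cdh3. The smallest absolute log2 fold change in it is 0.617. None of the 10 desmosome genes reached that size with limma, where Dsg1a had the largest change (-0.56).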

How the data were processed

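Per the labels, tongue epithelium of 3 KO and 3 WT mice was sequenced with a 3′ mRNA kit. The authors deposited a normalised read count per gene and library, a signal on a linear scale. Per the submitters' processing notes the tools were FastQC, STAR, featureCounts and DESeq2, with no version; build and strand setting: not given in the sources used here. All values were whole multiples of 1 step per library (100% within 0.01 of a whole read), so reads were recovered. Rows without a symbol (3192) name genes by ID, hold 0.0768% to 0.119% of reads and were kept; 0 value columns were unmatched. The authors' deposited table of called genes gives their mean signal, log2 fold change, a score (the Wald statistic), p-values and q-values; it was used for membership only. Of the gene IDs, 99.7% matched GENCODE M21.

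Values were transformed to log2(value + 1), filtered at 10 in at least 3 libraries, and compared with limma 3.58.1 (intensity trend, two-sided, Benjamini-Hochberg over 10987 genes) in R 4.3.3. edgeR 4.0.16 (quasi-likelihood) and DESeq2 1.42.0 ran on recovered reads. The log2(value + 1) scale understates changes of low genes. The fit was tested on simulated counts. Libraries come from separate mice. The members and lists were chosen with earlier results of these data known. The genes named are the 10 members, the other desmosome genes and nearest genes. Of the adherens junction, regulator, keratin and p53 target lists, those that passed and those with the smallest p are named. No gene of the endothelial, leukocyte and nerve marker lists is named. Krt13, Krt4, Grhl1, Sesn1, Krt15, the other markers named and the genes most like Pkp3 were added after their values were seen.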

Additional observations from a re-analysis of the deposited data

How the results depend on the processing

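The counts of desmosome genes called higher or lower in KO stayed at 0 in each of the 19 alternatives run, and Dsp, Pkp1, Pkp3, Dsg1a, Dsg2, Dsg3 and Dsc2 kept their sign in every fit that tested them. Dsg2 was not tested with the filter at 50. Over all genes, 134 were called higher and 64 lower; with a weight per library these were 317 and 273, with the library name style as a covariate 61 and 21, with DESeq2 210 and 161, and without 1 library 48 to 129 and 16 to 57. The higher count moved by over 1.5 times without KO replicate 1 (48), 2 (68) or 3 (49) or WT replicate 2 (64), and the lower count without KO replicate 1 (27) or 3 (19) or WT replicate 1 (38) or 2 (16). The sign of small changes turned. Jup was -0.38 with a weight per library and -0.30 to 0.30 without 1 library (negative without KO replicate 1, KO replicate 2 or WT replicate 3). Dsc3 was 0.077 with the name style and -0.35 to 0.059 without 1 library. Perp was -0.030 with equal totals, -0.081 with the name style, -0.0105 with edgeR and with DESeq2, and -0.12 to 0.15 without 1 library. The ratio of Pkp1 to Pkp3 was 0.061 on the log2 scale without WT replicate 1, against -0.14 with all libraries. The cause was not tested. Equal totals moved the median log2 fold change of all genes from -0.01 to -0.04. Same-numbered KO and WT libraries had correlations of deviations of -0.25, 0.03 and 0.28 for replicates 1 to 3, and not every library correlated best with its own number. With the replicate block, 117 genes were called higher and 61 lower, and 0 desmosome genes in either direction. With 12 to 23 reads per library, depth limits Dsg2 most.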

Other observations

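Some genes of cell junctions and keratin filaments varied far more between libraries of 1 genotype than the desmosome genes did; they were singled out after their values were seen. Ctnnd1, which encodes p120-catenin, the stabiliser of classical cadherins, had 43.3, 402 and 44.8 in KO replicates 1 to 3, against 663, 318 and 40.5 in WT replicates 1 to 3, a 16.4-fold range. Zdhhc5, a palmitoyltransferase, had 163, 340 and 128 in KO, against 343, 237 and 84.9 in WT, and Krt10, a keratin of differentiating cells, had 2738, 6645 and 2435 in KO, against 15655, 7995 and 2744 in WT. Ctnnd1, Zdhhc5 and Krt10 were each high in KO replicate 2 and WT replicates 1 and 2, the libraries in which Pkp3 was low and Xbp1 high. Ctnnb1, β-catenin, had values of 6.60 to 16.4 in all libraries, from 7 to 19 reads per library. Whether its count by 3′ tags reflects the amount of this mRNA was not tested.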
